A study of Homo sapiens with 10 samples.

Results

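The miR-15/16 family was followed through 5 purifications of RNA held by a probe against a chosen messenger RNA or by a control probe. Its members were all 6 panel assays named hsa-miR-15a, hsa-miR-15b, hsa-miR-16, hsa-miR-195, hsa-miR-424 and hsa-miR-497, without the passenger (star) strands, out of 745 miRNA assays, and all 6 lay on panel 1 (375 assays). The purifications were made from HepG2, a human liver tumour line, with a p21 probe, a STAT3 probe or a control probe, and from PC-3, a human prostate cancer line, with a p21 probe or a control probe. Each probe was left in living cells for 24 hours, the material it held was taken up on streptavidin beads, and miRNAs were measured by SYBR Green PCR on 2 panels. p21 is a cyclin-dependent kinase inhibitor and STAT3 a cytokine-activated transcription factor. There was 1 purification per condition, so differences below lack any replicate check, and p-values are left out.

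The miR-15/16 family is one of the classical brakes on the cell cycle. Its members share a seed, the stretch near the 5′ end through which a miRNA pairs with messenger RNAs, and are known to repress cyclins of the D and E type, CDK6, WEE1 and the survival factor BCL2. The genes for miR-15a and miR-16 are lost in many chronic lymphocytic leukaemias, and miR-195 and miR-497 are best known from muscle, heart and endothelium.

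The mature sequences are shown because the members differ outside the seed only, while their recoveries differed. They are the RefSeq 5p strands (GRCh38.p14), matched by name for 6 of 6 members, with the seed, bases 2 to 8, in capitals.
hsa-miR-15a: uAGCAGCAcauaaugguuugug
hsa-miR-15b: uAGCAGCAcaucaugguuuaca
hsa-miR-16: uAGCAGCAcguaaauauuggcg
hsa-miR-195: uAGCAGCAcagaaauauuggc
hsa-miR-424: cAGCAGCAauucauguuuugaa
hsa-miR-497: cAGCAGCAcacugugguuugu

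The 6 seeds are identical. Read position by position from the 5′ end, miR-15a and miR-15b are identical at 18 of 22 bases and miR-16 and miR-195 at 19 of 21. miR-15a and miR-16 match at 16 of 22 bases, and miR-16 and miR-424 at 12 of 22. How well the assays keep such similar sequences apart was not tested.

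The members come from 4 loci as close pairs. miR-15a (MIR15A, chr13:50049167-50049188, minus strand) lies with the MIR16-1 copy of miR-16 (chr13:50049027-50049048), their hairpins 57 bases apart, within the span of the long non-coding gene DLEU2. miR-15b (MIR15B, chr3:160404607-160404628, plus strand) lies with the MIR16-2 copy (chr3:160404754-160404775), 59 bases apart, within the span of SMC4, which encodes a condensin subunit. Both copies give the same mature miR-16, which the assay reads as a sum. miR-195 (chr17:7017667-7017687) and miR-497 (chr17:7017979-7017999), both on the minus strand, lie 209 bases apart within the long non-coding gene MIR497HG. miR-424 (chrX:134546680-134546701, minus strand) lies 215 bases from miR-503. The tables used here give gene spans, so whether a hairpin is exonic or intronic is not stated.

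Detection meant a Cq of at most 35, Cq being the PCR cycle at which signal crosses the threshold, lower for more RNA. In HepG2 the p21 purification held 4 of 6 members at that limit (28.3% of all 745 assays), the STAT3 purification 3 of 6 (34.4%) and the control purification 4 of 6 (16.8%). In PC-3 0 of 6 members passed with the p21 probe (7.11% of assays) and 0 of 6 with the control probe (2.15%). On panel 1 alone, which holds all members, the p21, STAT3 and control purifications of HepG2 held 128, 139 and 108 of 375 assays. The p21 and control purifications of PC-3 held 38 and 8. A Cq reflects how many cells entered the purification, how much of the messenger was caught and how much miRNA each cell holds, and these cannot be told apart here.

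**Figure D1:**
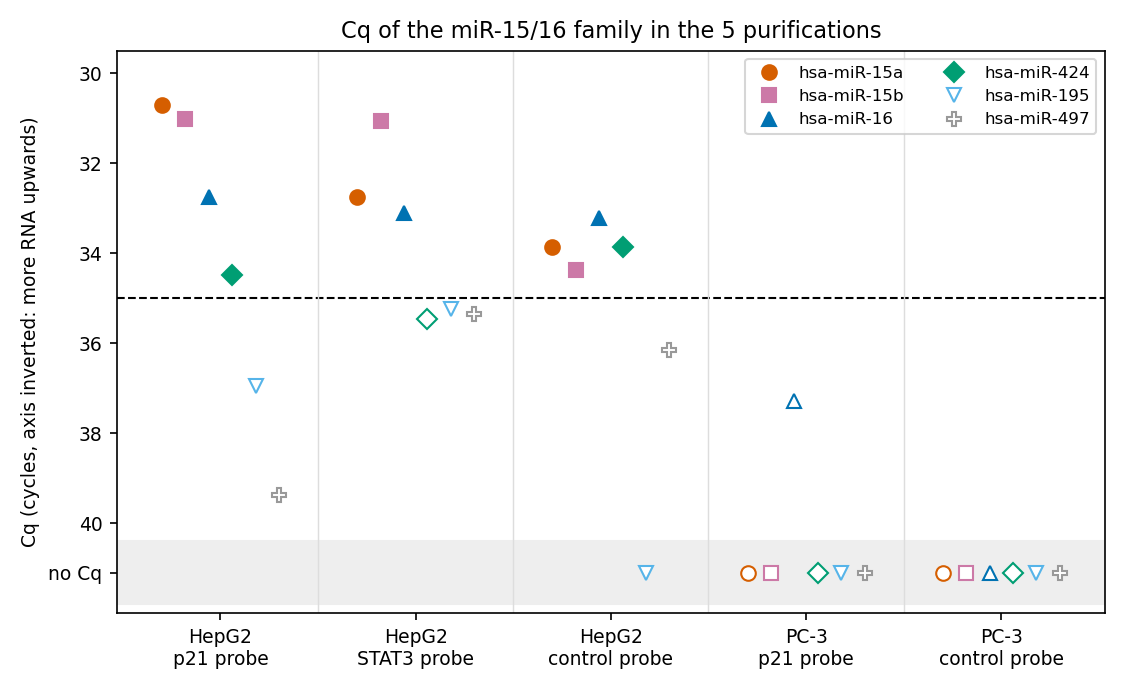
Cq (cycles, inverted axis) of the 6 members in the 5 purifications, 1 well each, with filled points at or under the limit of 35 (dashed line), open points above it and wells without a Cq in the grey band. miR-15a and miR-15b stand at 30.71 and 31.03 with the p21 probe in HepG2, and in PC-3 the family has a single point, miR-16 at 37.29.

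miR-15a, from the DLEU2 locus, was measured at Cq 30.71 with the p21 probe and 32.74 under the STAT3 probe, against 33.86 with the control probe. By Cq as read, the order of its levels in HepG2 was therefore p21, STAT3, control. The places of p21 and of STAT3 over control both depended on the centre (below). miR-15b, from the SMC4 locus, gave 31.03 with the p21 probe and 31.05 under the STAT3 probe, against 34.38 with the control probe. As read, its levels with the 2 target probes were alike to 0.02 cycles and both stood apart from the control. The place of p21 over control again depended on the centre (below). miR-16, the partner of both, gave 32.76 with the p21 probe and 33.11 under the STAT3 probe, against 33.22 with the control probe. Neighbours in that order differed by less than the error of a single well.

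miR-424, the X-linked member, gave 34.49 with the p21 probe and 35.45 under the STAT3 probe, against 33.85 with the control probe, and so was the one detected member with most RNA in the control purification. miR-195 gave 36.95 with the p21 probe and 35.23 under the STAT3 probe, and no Cq with the control probe. miR-497 gave 39.36 with the p21 probe and 35.35 under the STAT3 probe, against 36.15 with the control probe. These last 2, the MIR497HG pair, never passed the limit, though with the STAT3 probe they stood just outside it, while miR-424 at 34.49 and miR-15b at 34.38 stood just inside. Levels of different members are not ranked against each other, since a Cq also depends on the efficiency of its assay.

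The only error available was technical. Over 7 assays present on both panels, a Cq had an SD of 0.68 cycles (27 pairs). A difference between a target and a control purification had an SD of 0.72 cycles (14 pairs), and both SDs include offsets between panels. With those offsets removed, the gap between the differences of 2 assays had an SD of 0.92 cycles. The error of transfection and purification is not covered. Single wells near the limit can be further off: miR-103, a relative of the family, read Cq 33.50 on panel 1 and 31.06 on panel 2 in the same HepG2 control purification.

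With the p21 probe in HepG2, miR-15a and miR-15b exceeded the control as read and relative to the panel, but not on every centre (below). miR-16 was about level as read, and miR-424 was lower relative to the panel. Before any centring the log2 differences, 1 cycle being 1 log2 unit, were 3.14 for miR-15a (8.84-fold), 3.35 for miR-15b (10.2-fold), 0.47 for miR-16 (1.38-fold) and -0.64 for miR-424 (0.643-fold). Those of miR-15a and miR-15b exceeded the technical SD of 0.72, and those of miR-16 and miR-424 did not. That SD rests mainly on small RNAs and a spike-in of lower Cq, so it may be too small for the members. In the same comparison miR-103 gave a difference of 5.59 on panel 1 and 3.32 on panel 2. The 87 panel 1 assays detected with both probes had themselves a median of 1.30. Relative to that median miR-15a stood at 1.84 (3.59-fold), miR-15b at 2.05 (4.13-fold), miR-16 at -0.84 (0.560-fold) and miR-424 at -1.94 (0.261-fold).

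Thus 2 of the 4 members detected under each probe exceeded the panel by 2-fold or more, as did 37.9% of 103 assays, and 1 of 4 was at least 2-fold lower, where 36.9% were. Both shares are too large for the counts to set the family apart. The family's median was 0.50, and the interquartile range of the panel was -1.44 to 1.73. In rank, miR-15b was 16th, miR-15a 21st, miR-16 51st and miR-424 75th of the 87 assays.

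The members had similar Cq values with the control probe, 33.22 to 34.38, so a comparison with assays of like abundance was made. Of 42 panel 1 assays with a control Cq of 33 to 35 that passed under each probe, 35.7% were 2-fold or more above the panel under the p21 probe, and their median before centring was 1.25. The 2 members that were higher and the 1 that was lower stayed so on this centre.

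**Figure D2:**
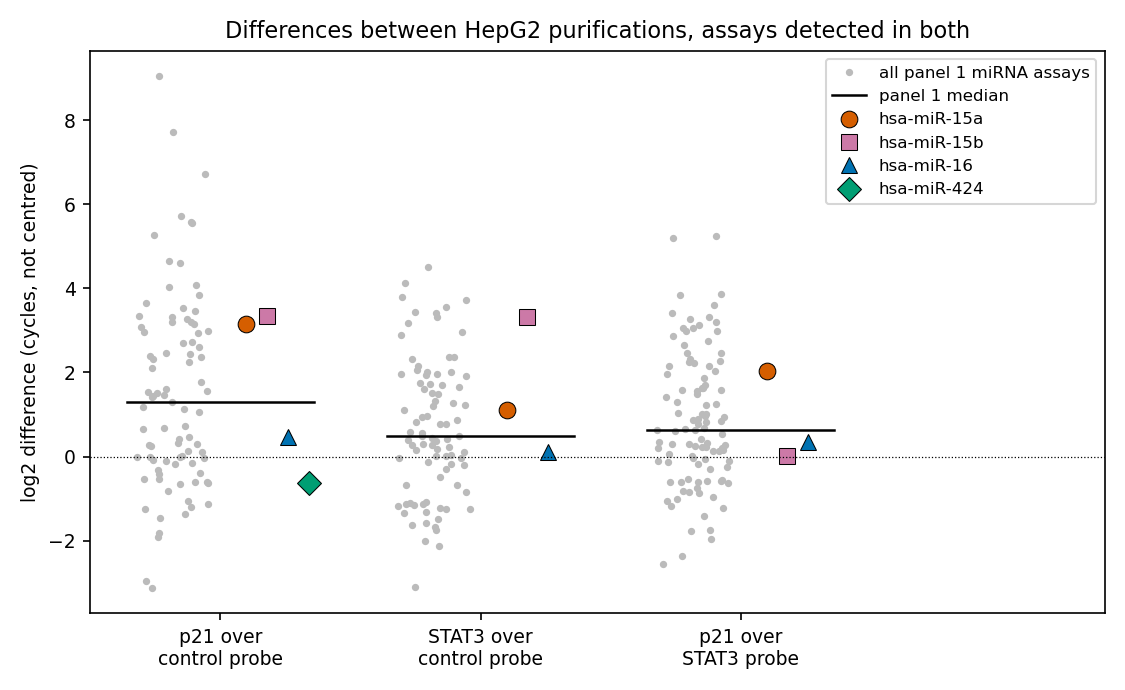
Log2 difference (cycles, not centred) between HepG2 purifications for the members detected in both, beside all panel 1 miRNA assays detected in both (grey points) and their median (black line). With the p21 over the control probe the members run from -0.64 to 3.35 around a panel median of 1.30.

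Gaps between members of one purification pair are free of the choice of centre, because all are read on the same plates. They are gaps between differences from the control probe, not between levels of members. For the p21 probe, the difference of miR-15a exceeded that of its cluster partner miR-16 by 2.68 log2 units (6.41-fold). The difference of miR-15b exceeded that of miR-16 by 2.88 (7.38-fold). Both gaps are larger than the technical SD of 0.92, which rests mainly on assays of lower Cq than the members. The differences of miR-15a and miR-15b were 0.20 apart, within that SD. The gap of miR-15b over miR-424 was 3.99, and that of miR-16 over miR-424 was 1.10, little more than the SD.

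With the STAT3 probe in HepG2, miR-15b was the one member clearly above the panel. Its difference from the control probe was 3.33 log2 units before centring (10.0-fold) and 2.83 relative to the panel median of 0.49, which ranked it 8th of 87 assays. miR-15a was 1.11 before centring and 0.62 after it, and miR-16 was 0.11 and -0.38. miR-424 was detected with the control probe only; with the STAT3 well at the limit it was at least 3.12-fold lower relative to the panel, a bound of 2.22-fold before centring.

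Of the 3 members detected with the STAT3 and the control probe, 1 was at least 2-fold higher, where 29% of 100 assays were, and 0 were lower, where 25% were. The family's median was 0.62, and the interquartile range of the panel was -1.07 to 1.34. Among 38 assays of like control Cq (33 to 35), 28.9% were at least 2-fold higher. The difference of miR-15b from the control probe exceeded that of miR-16 by 3.21 log2 units (9.26-fold). It exceeded that of miR-15a by 2.21 (4.63-fold), and both gaps are above the technical SD of a gap. That SD may be too small for assays at the Cq of the members. The gap between miR-15a and miR-16 was close to that SD.

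The p21 and STAT3 results share the HepG2 control purification, so p21 was also compared with STAT3 directly. miR-15a then gave a difference of 2.03 log2 units (4.09-fold), against 0.02 for miR-15b and 0.35 for miR-16. Relative to the median of 102 panel 1 assays (0.64), miR-15a stood at 1.39, miR-15b at -0.62 and miR-16 at -0.29, with a family median of -0.29. Thus 1 of 3 members was at least 2-fold higher, where 29% of 155 assays were, and 0 were lower, where 20% were. The gap of 2.01 log2 units between miR-15a and miR-15b, the members closest in sequence among those detected, exceeded the technical SD. That SD rests mainly on small RNAs and a spike-in of lower Cq, so the gap is not shown to be clear of technical error. The gap comes from 1 well for each member in each purification.

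The direction of single members depended on what was held constant. U6, SNORD38B and SNORD49A, small nuclear and nucleolar RNAs, were themselves 2.44 cycles higher on panel 1 with the p21 than with the control probe, and 1.75 higher with the STAT3 probe. Relative to them miR-15a and miR-15b were 0.71 and 0.91 under the p21 probe, under 2-fold, and miR-16 and miR-424 were -1.97 and -3.07. With miR-423-5p and miR-103 added to the centre, miR-15a and miR-15b turned to -0.58 and -0.37. Another reference miRNA, miR-191, read Cq 35.55 with the control probe on panel 1, past the limit, and so did not enter. The UniSp3 calibrator moved by -2.28 cycles on the same plates, and centred on it all 4 members were higher, from 1.64 (miR-424) to 5.63 (miR-15b). Its wells varied by an SD of 1.005 cycles within a plate, and 1 of its 3 wells on this panel read 24.91 with the p21 probe, against 21.06 with the control probe. Without that well the calibrator moved by -1.49 cycles and miR-424 stood at 0.85, under 2-fold. Under the STAT3 probe miR-15b stayed at least 2-fold higher on every one of these centres, from 1.22 to 4.62. miR-15a with that probe was -0.64 on the 3 small RNAs, -0.99 with miR-423-5p and miR-103 added, and 2.41 on UniSp3.

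**Figure D3:**
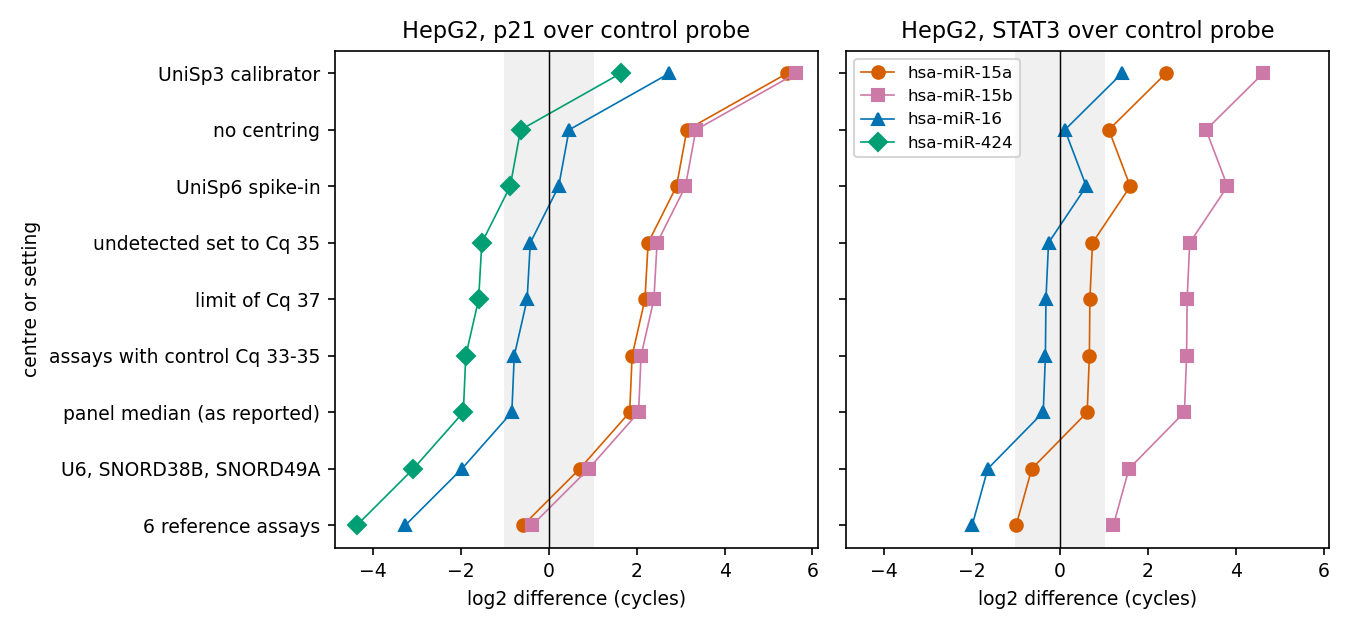
Log2 difference (cycles) of each member over the control probe in HepG2 under 9 centres or settings, with the p21 probe on the left and the STAT3 probe on the right; the grey band is under 2-fold. By construction the points of all members move together from UniSp3 to the reference assays, and their order stays the same in each plot. The row labelled 6 reference assays lacks miR-191, which lay past the limit with the control probe.

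In the authors' deposited table, whose folds could be rebuilt with UniSp6 as the normaliser, miR-15a is listed at 7.51-fold and miR-15b at 8.64-fold for the p21 probe in HepG2, with miR-16 at 1.17-fold and miR-424 at 0.546-fold. For the STAT3 probe the authors' deposited table lists miR-15b at 14.1-fold, miR-15a at 3.04-fold, miR-16 at 1.52-fold and miR-424 at 0.463-fold. The authors' deposited table also gives values for members that were at the limit with both probes: miR-195 and miR-497 are listed at 0.849-fold for p21 and 1.40-fold for STAT3. Those 2 values follow from the spike-in alone and hold no measurement of the miRNAs.

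PC-3 gave almost no family signal. With the p21 probe miR-16 gave Cq 37.29, past the limit, and the other 5 members gave no Cq; with the control probe none of the 6 gave one. With the PC-3 wells at the limit, the p21 purification of HepG2 held at least 19.5-fold more miR-15a, 15.7-fold more miR-15b and 4.74-fold more miR-16 than that of PC-3 before centring. Assays detected in both p21 purifications had a panel 1 median of 2.50 cycles in favour of HepG2 (31 assays), which lowers the bounds to 3.44-fold for miR-15a and 2.77-fold for miR-15b and leaves none for miR-16. Between those purifications the mean difference of U6, SNORD38B and SNORD49A on panel 1 was 0.50 cycles. With the control probe the HepG2 bounds were from 1.54-fold (miR-15b) to 3.43-fold (miR-16) before centring. Relative to the panel 1 median of 1.59 cycles (6 assays) miR-16 alone kept a bound, of 1.14-fold. No member was detected in both purifications of any comparison that involved PC-3, so no difference was computed there.

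Of the passenger strands, the opposite arms of the same hairpins, 5 of the 7 listed were read, all on panel 2. miR-15b* gave Cq 34.78 with the p21 probe and 35.01 under the STAT3 probe, against 35.58 with the control probe. miR-16-2* gave 34.86 with the p21 probe and 34.85 under the STAT3 probe, and no Cq with the control probe. These belong to the SMC4 locus, and their Cq values with the 2 target probes lay within the error of a well. miR-424* was detected with the STAT3 probe only, at Cq 33.27, the purification in which miR-424 itself did not pass. miR-195* reached 36.05 at best and miR-15a* gave no Cq, so 2 of 5 were detected with the p21 probe (22.4% of the 370 panel 2 assays), 2 of 5 with the STAT3 probe (31.6%) and 0 of 5 with the control probe (4.59%). In PC-3 none of the 5 gave a Cq.

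Relatives with an overlapping seed are shown because their recoveries can be set beside the family's. miR-103 and miR-107 carry the family's seed letters 1 base earlier, and miR-503 and miR-646 share all but the last of them. Bases 2 to 8 are again in capitals.
hsa-miR-103: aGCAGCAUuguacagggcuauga
hsa-miR-107: aGCAGCAUuguacagggcuauca
hsa-miR-503: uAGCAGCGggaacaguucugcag
hsa-miR-646: aAGCAGCUgccucugaggc

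miR-107, which like miR-103 is known from lipid and insulin metabolism, gave Cq 29.93 with the p21 probe and 33.05 under the STAT3 probe, against 32.39 with the control probe, and stood at 1.15 and -1.16 relative to the panel. miR-103 stood at 4.29 on panel 1 and 2.26 on panel 2 with the p21 probe, and at 1.83 and -0.33 with the STAT3 probe. Compared with STAT3 directly, the p21 probe held more of both, with 3 of 3 assays between 2.44 and 2.63 relative to their panels. In that comparison miR-15a stood at 1.39, while miR-15b (-0.62) and miR-16 (-0.29) lay within the technical SD of 0.72 of the panel, and without centring at 0.02 and 0.35. miR-503 and miR-646 were detected with the STAT3 probe only, at Cq 33.71 and 33.76.

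Of the miRNAs made with miR-424 from the same region of the X chromosome, 5 of 6 listed were read. With the STAT3 probe 2 of them were detected (miR-503 and miR-450b-3p at 34.56), with the p21 probe 1 (miR-450b-3p at 33.59) and with the HepG2 control probe 0. Of all 745 assays, 34.4%, 28.3% and 16.8% were detected in those purifications. In PC-3 miR-542-5p passed with the p21 probe at 33.88 and miR-450b-3p with the control probe at 32.80, although miR-424 gave no Cq in that line. There 7.11% and 2.15% of all assays passed.

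Other miRNAs reported to restrain the cell cycle also moved in both directions, as did the assays at large. Of 10 listed, 4 were measured with the p21 and the control probe. Relative to the panel miR-193b (5.41) and miR-24 (1.89) were higher, and miR-26a (-2.35) and miR-26b (-1.63) lower. Of 103 assays, 37.9% were at least 2-fold higher and 36.9% lower. miR-34a, a direct target of p53, gave 36.33 with the p21 probe, against 32.93 with the control probe. With the STAT3 probe 2 of 6 were at least 2-fold higher and 3 of 6 lower, where 29% and 25% of 100 assays were. The median of the 6 was -1.15. In PC-3 miR-24 and miR-193b passed with the p21 probe, at Cq 32.30 and 33.67, where no member of the miR-15/16 family did.

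The assays with Cq values nearest to each member were sought among 49 panel 1 assays outside the family, all detected in the same 3 HepG2 purifications and in neither PC-3 one. The measure was the mean absolute difference in Cq over those 3 purifications, which depends on the efficiency of each assay as well as on recovery. For miR-15a the nearest were miR-181a (0.44 cycles), miR-196b (0.54) and miR-210 (0.59). For miR-15b they were miR-574-3p (0.28), miR-484 (0.46) and miR-99b (0.65), and for miR-16 miR-132 (0.23), miR-151-5p (0.47) and miR-29b (0.51).

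Marker miRNAs, all on panel 1, were read beside the family. Of all 375 panel 1 assays, 128, 139 and 108 passed with the p21, STAT3 and control probes in HepG2. In PC-3, 38 passed with the p21 probe and 8 with the control probe. The liver miRNA miR-122 gave no Cq in any purification, and of 6 liver miRNAs in HepG2, 0 passed under the p21 probe, 4 under the STAT3 probe and 0 under the control probe. Of 7 blood-cell miRNAs, 3 were detected with the p21 probe, 3 with the STAT3 probe and 4 with the control probe in HepG2, with lowest Cq values of 32.77, 32.74 and 31.53, and 0 in PC-3. miR-451, a red-cell miRNA that is often read beside miR-16, gave 33.44 with the p21 probe and 34.07 under the STAT3 probe, against 32.84 with the control probe. Of 8 muscle and stromal miRNAs 4, 5 and 5 passed in the same HepG2 purifications, and of 3 miRNAs common in carcinoma lines 3, 3 and 2. In PC-3, miR-221 (33.92) and miR-222 (33.64) of the carcinoma list passed under the p21 probe and none of the 3 under the control probe. All 3 blood-cell and all 4 muscle and stromal miRNAs measured with the p21 and the control probe were at least 2-fold lower relative to the panel. So were miR-424 and 36.9% of the 103 assays. With the STAT3 and the control probe 2 of 3 blood-cell and 3 of 4 muscle and stromal miRNAs were lower, where 25% of 100 assays were. Whether such material has a part in the values of the family was not tested.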

How the data were processed

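The 10 samples are 5 purifications, each read on 2 panels that hold different assays and are not replicates; groups and panels came from the labels. Per the labels' protocols, miRNAs were measured with Exiqon SYBR Green RT-PCR panels. The authors deposited Cq values without normalisation, from 1 well per miRNA assay, and marked wells lacking a call as undetermined. The sources used here do not give instrument or threshold. Their second table holds fold ratios, per the file headers 2 to the power of minus ΔΔCt; its columns are titled as log values, but none is negative.

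Differences were Cq of the comparison purification minus Cq of the target purification, for assays at Cq 35 or less in both, centred on the median of the panel's miRNA assays (Python 3.11.15, pandas 2.3.3). The code for this step was checked on simulated Cq values. At least 1 log2 unit (2-fold) was counted as higher or lower. Every member was named. The family, the lists of relatives, cell-cycle and marker miRNAs and the likeness measure were chosen with earlier results of these data known. Limits of Cq 32 and 37, 5 other centres and undetected assays at Cq 35 were tried, and the authors' folds were read as an alternative. A centre on assays of like control Cq and a UniSp3 centre without 1 well were added after the data were seen. Sequences and coordinates are from RefSeq (GRCh38.p14).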

Additional observations from a re-analysis of the deposited data

Results flagged for a closer look

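Past the detection limit, 2 members gave a Cq with a target probe and none with the matching control probe. These wells entered no comparison at the limit of Cq 35. In HepG2 miR-195 gave Cq 36.95 under the p21 probe and 35.23 under the STAT3 probe, and miR-16 gave Cq 37.29 with the p21 probe in PC-3. Each is 1 well.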

How the results depend on the processing

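Each condition was purified 1 time, so no replicate could be left out and no paired analysis was possible because there are no replicates. Most wells of the family lie within a few cycles of the limit. At a limit of Cq 32 the p21, STAT3 and control purifications of HepG2 held 2, 1 and 0 members, and no member was higher or lower in any comparison. At Cq 37 the STAT3 purification held 6, with 1 member lower than in the control. The 1 member then lower with p21 than with STAT3 was miR-195, at Cq 36.95 and 35.23. For p21 over control the counts higher and lower, and the median, became 2, 0 and 1.81 without centring. On U6, SNORD38B and SNORD49A they were 0, 2 and -0.63. On the reference assays without miR-191, past the limit in the control, they were 0, 2 and -1.92 (miR-15a at -0.58 and miR-15b at -0.37). On UniSp3 they were 4, 0 and 4.08 (miR-424 at 1.64). Without its deviating well, a choice made after seeing the data, they were 3, 0 and 3.30 (miR-424 at 0.85). On UniSp6 and in the authors' deposited table they were 2, 0 and 1.57. For STAT3 over control they became 2 and 0 without centring and 1, 1 and -0.64 on the 3 small RNAs. On the reference assays, again without miR-191, they were 1, 1 and -0.99. They were 3, 0 and 2.41 on UniSp3, and 1 was lower when undetected wells were set to Cq 35. On UniSp6 and in the authors' deposited table they were 2, 0 and 1.60 for the 3 members detected with both probes. miR-424, not among those 3, is listed in the authors' deposited table at 0.463-fold. For p21 over STAT3 they became 0, 2 and -1.31 on 6 reference assays and 3, 0 and 1.33 on UniSp3. With undetected wells at Cq 35, HepG2 over PC-3 gave, relative to the panel, 2 higher and 1 lower with the p21 probe and 1 lower with the control probe. No member was detected in PC-3, so before centring every member detected in HepG2 was higher there. The lower counts come from subtracting the panel median and show no member lower in HepG2. By construction a centre moves all members of a panel alike, so the gaps between members were the same under each. Within HepG2, 46 counts and medians stayed within 1.5 times or 0.72 cycles and 44 did not. Of the member values 40 stayed within 0.72 cycles, 45 moved by more, and 4 of at least 1 log2 unit turned sign. Smaller values that turned sign are counted among the 40 or the 45. An example is miR-16 with p21 over control, at -0.84 relative to the panel and 0.47 without centring. In PC-3, with 0 members detected, a centre could not move a count.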

Other observations

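For the members, their passenger strands, miR-107 and miR-503, 35 of 39 entries of the authors' deposited table could be rebuilt within 0.01 log2 units from the Cq values with UniSp6 and a limit of 35, and 4 could not. In the PC-3 column miR-195, a panel 1 assay, is listed at 1.51-fold, the value of an undetected assay of panel 2, and miR-195*, a panel 2 assay, at 0.71-fold, the value of an undetected assay of panel 1. Neither assay gave a Cq in PC-3, so both entries hold no measurement. In the STAT3 column the authors' deposited table lists miR-424 at 0.463-fold, which follows from its STAT3 Cq as read, 35.45, while a limit of 35 would give 0.633-fold. miR-15b* is likewise listed at 0.56-fold, which follows from its STAT3 Cq as read, 35.01, against 0.565-fold with the limit.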
